A study of Homo sapiens with 12 samples.

Results

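The polyamine synthesis and breakdown genes are 10 genes taken by name from a table of RNA sequencing counts in Ewing sarcoma cells. They are the synthesis enzymes ODC1, AMD1, SRM and SMS, the antizyme genes OAZ1, OAZ2 and AZIN1, and the breakdown enzymes SAT1, SMOX and PAOX. AZIN1 encodes an inhibitor of antizyme and is counted with the antizyme genes throughout. All 10 were found among the 20771 genes of the table, and all 10 were among the 16515 that passed a filter on low counts. They were picked out of the table by gene name and not by a measured value in it.

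EW8 and TC71 are cell lines of Ewing sarcoma, a tumor of bone and soft tissue in children and young adults. In EW8-RRM1-KO and TC71-RRM1-KO the endogenous RRM1 gene, which encodes the large catalytic subunit of ribonucleotide reductase, was disrupted with CRISPR/Cas9, and a codon-optimized RRM1 transgene that is expressed in the presence of doxycycline kept the cells supplied. The 12 libraries form 4 groups of 3: each line labelled 0 h, with doxycycline, and each line labelled 48 h, after doxycycline had been absent for 48 hours. All 4 groups thus carry both the knockout and the transgene. Loss of the transgene's expression and absence of doxycycline itself cannot be told apart with these libraries. Each knockout line goes back to a single cell, so line and clone cannot be told apart either. The labels do not say whether replicates were separate cultures, so the p-values measure the spread between these libraries only.

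Libraries held 18468485 to 35698991 counts. RRM1 read 9.37 to 9.67 CPM (counts relative to a library's size, corrected for its composition) in EW8 at 0 h and 63.9 to 74.1 at 48 h, and 15.5 to 17.3 against 24.1 to 26.4 in TC71. The gene's own transcript was therefore higher in the libraries labelled 48 h. A count over the whole gene does not show whether the protein is made, and a codon-optimized transcript may not map to it, so RRM1 does not check the labels here. Of 10 Ewing sarcoma markers, CD99, PRKCB, CAV1, PAX7 and STEAP1 stood above 100 CPM in all libraries, and CCK was near the bottom, at no more than 2.67 CPM. At an adjusted p below 0.05, 6 of the 10 were called up and 3 down at 48 h in EW8, and 7 up and 2 down in TC71, beside 37.0% and 31.6% of all genes tested in EW8 and 22.9% and 19.2% in TC71. FLI1 was lower by -0.72 on the log2 scale in EW8 and -0.41 in TC71, and NR0B1 was higher by 0.98 in EW8. Of 6 markers of other cells, the leukocyte gene PTPRC had at most 5 counts in a library and the epithelial gene EPCAM at most 43, while the endothelial gene PECAM1 is not among the genes analyzed here. COL1A1 and KRT18, markers of fibroblasts and epithelium, rose at 48 h with the breakdown genes, COL1A1 from a mean of 11.2 to 38.6 CPM in EW8 and from 20.6 to 32.5 in TC71, and KRT18 from 7.53 to 18.9 and from 65.4 to 94.9. COL3A1, the other fibroblast marker, rose as well, by 0.22 on the log2 scale in each line. Its mean went from 129 to 151 CPM in EW8 and from 29.2 to 34.0 in TC71, so it was not low in EW8. EPCAM passed in TC71 (adjusted p = 0.0353) and not in EW8 (0.0676). Thus 3 of the 4 such markers tested were called up in EW8 and 4 of 4 in TC71, beside 37.0% and 22.9% of all genes tested. The part of these changes in the results was not tested.

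Polyamines are small positively charged molecules that bind nucleic acids and are needed for growth. Ornithine decarboxylase (ODC1) makes putrescine, AMD1 makes the decarboxylated S-adenosylmethionine that donates the aminopropyl group, and the synthases SRM and SMS use it to build spermidine and then spermine. ODC1, AMD1 and SRM are known transcriptional targets of c-Myc. Antizymes bind the ODC1 protein, send it to the proteasome and block polyamine uptake, and AZIN1 is a decoy that takes antizyme away. In the other direction SAT1 acetylates spermidine and spermine, PAOX oxidizes the acetylated forms, and SMOX oxidizes spermine directly. SAT1 is known as a gene that responds to stress and to polyamine excess. Much of this system is set through translation and protein stability, which RNA counts do not show.

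The 3 stretches of reference sequence that follow were chosen because they lie at the start of 2 synthesis genes that hold an E-box, the motif c-Myc is known to bind, and of the breakdown gene that changed the most. They are RefSeq promoter sequence of GRCh38.p14, read 5′ to 3′ on the gene's own strand, with every CACGTG in capitals. The SRM stretch covers chr1:11060021-11060268 on the − strand and ends at the base before the annotated start of the gene. The ODC1 stretch covers chr2:10447998-10448120 on the − strand. It begins at the first base after exon 1 of the canonical transcript and enters the first exon of an alternative transcript for its last 17 bases. The SAT1 stretch covers chrX:23782923-23783172 on the + strand and ends at the base before the gene starts.
SRM: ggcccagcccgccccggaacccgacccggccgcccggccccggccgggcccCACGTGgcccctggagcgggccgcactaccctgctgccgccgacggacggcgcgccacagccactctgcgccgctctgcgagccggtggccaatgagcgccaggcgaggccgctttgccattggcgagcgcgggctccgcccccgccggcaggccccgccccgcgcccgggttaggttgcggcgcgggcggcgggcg
ODC1: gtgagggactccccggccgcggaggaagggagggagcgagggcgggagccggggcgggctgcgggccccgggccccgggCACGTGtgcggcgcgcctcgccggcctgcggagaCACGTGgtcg
SAT1: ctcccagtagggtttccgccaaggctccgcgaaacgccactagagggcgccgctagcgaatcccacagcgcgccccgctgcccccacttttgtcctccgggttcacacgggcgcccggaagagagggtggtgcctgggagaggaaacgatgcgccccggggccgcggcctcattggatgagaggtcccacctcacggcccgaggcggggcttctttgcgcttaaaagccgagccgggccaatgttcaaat

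The E-box CACGTG reads the same on both strands. SRM holds 1, from 11060212 to 11060217, and ODC1 holds 2 whose first bases lie 34 bases apart, from 10448036 to 10448041 and from 10448002 to 10448007. RefSeq windows of 300 bases, 250 before a start and 50 after it, were given for 7 members: ODC1, AMD1, SRM, SMS, OAZ1, OAZ2 and SAT1. ODC1 and SRM were the 2 of these 7 with an E-box, against 8.77% of all 27305 genes with a window. The AP-1 motif TGACTCA, sought on both strands as the motifs after it were, was found in OAZ2, against 6.05% of genes. The CRE motif TGACGTCA and the amino acid response motif TGATGCAA were in none of the 7, against 2.25% and 1.08%. TATAAA was in OAZ1, against 13.99% of genes, and the GC box GGGCGG in 6 of the 7, all but SAT1, against 48.3%. A match describes these letters only and is not evidence of binding.

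The first comparison asked which of these transcripts differed when EW8 had been without doxycycline for 48 hours. All 4 synthesis genes were downregulated, by 31 to 42%, and all 3 breakdown genes were upregulated, SAT1 by 8.82-fold and SMOX and PAOX by about 2-fold. Of the antizyme genes, OAZ1 and OAZ2 were downregulated slightly and AZIN1 did not pass the test. At an adjusted p below 0.05 (edgeR's quasi-likelihood test, Benjamini-Hochberg over all 16515 genes), 3 members rose and 6 fell, beside 37.0% of all genes that rose and 31.6% that fell. With a fold above 2 as well, 2 members rose and 0 fell, beside 13.9% and 3.35% of all genes. The libraries of the 2 groups did not overlap for 3 members that were higher and 6 that were lower, beside 37.9% and 33.2% of all genes. The median log2 change was -0.63 over the synthesis genes, -0.14 over the antizyme genes and 1.02 over the breakdown genes, and 0.03 over all genes tested.

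In TC71 fewer members passed the test. The rate-limiting enzymes ODC1 and AMD1 were downregulated, as were SRM and OAZ1 by smaller steps, SAT1 was upregulated 2.83-fold, and SMS, OAZ2, AZIN1, SMOX and PAOX did not pass the test. At an adjusted p below 0.05, 1 member rose and 4 fell, beside 22.9% of all genes that rose and 19.2% that fell. With a fold above 2, 1 rose and 0 fell, beside 3.26% and 0.854%. Groups did not overlap for 1 member that was higher and 4 that were lower (25.9% and 23.7% of all genes), OAZ2 among the latter. Medians were -0.21 for synthesis, -0.07 for the antizyme genes and 0.24 for breakdown, and -0.0013 for all genes.

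**Figure D1:**
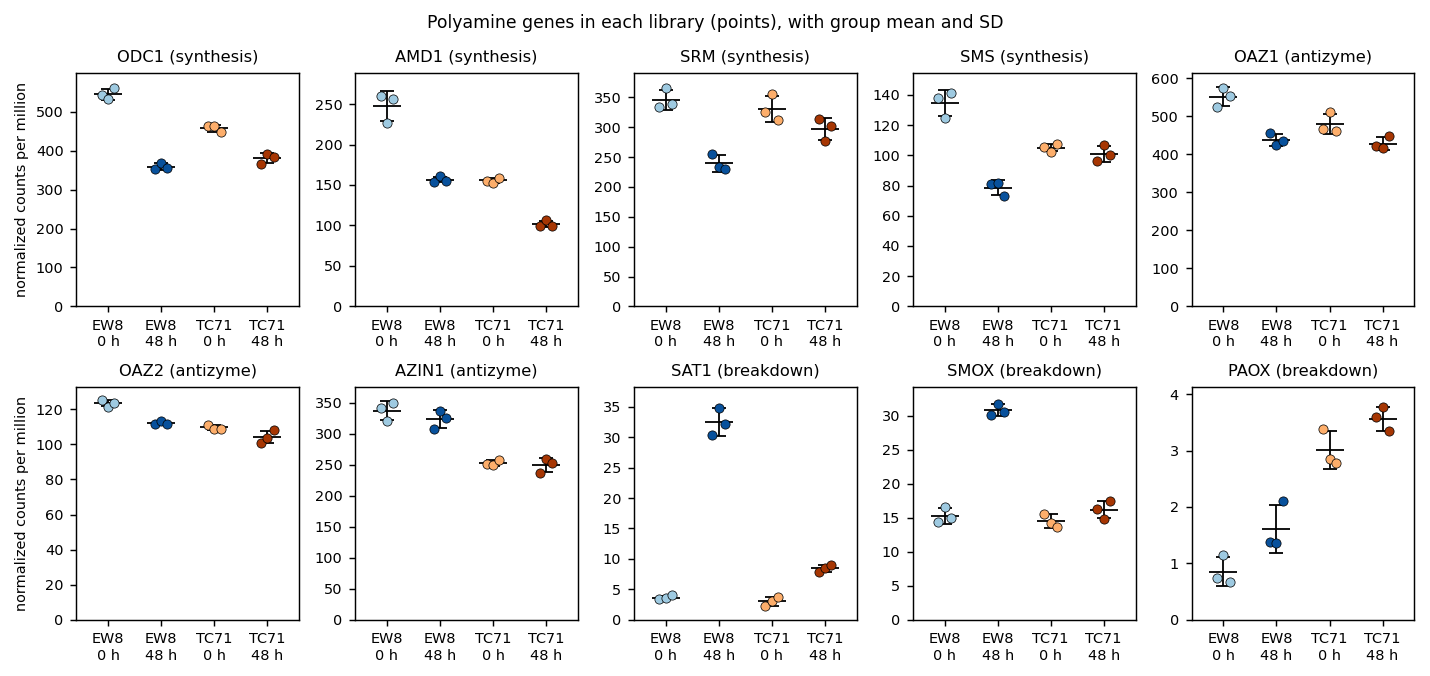
CPM of each of the 10 polyamine genes (vertical axes from 0, a separate scale for each gene) in EW8 and TC71 libraries labelled 0 h and 48 h. Points are libraries, horizontal lines are group means and bars are SD (n = 3); SAT1 lies between 3.42 and 4.0 CPM in EW8 at 0 h and between 30.4 and 34.9 at 48 h.

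ODC1, at chr2:10439968-10448327 on the − strand, encodes the first and rate-limiting enzyme of synthesis. Its level in EW8 was 544, 532 and 560 CPM at 0 h and 353, 370 and 356 at 48 h. The 2 groups did not overlap, and the log2 change was -0.60 ± 0.04 (SE; adjusted p = 3.20e-16). In TC71 it was 462, 464 and 448 CPM at 0 h and 366, 393 and 385 at 48 h. Again every library labelled 48 h lay below every library labelled 0 h, and the log2 change was -0.26 ± 0.04 (adjusted p = 4.16e-07). The change differed between the lines by -0.34 ± 0.05 (adjusted p = 1.71e-06). These are shares of a library's RNA in bulk samples, in which fewer cells expressing a gene and less of its RNA per cell cannot be told apart.

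AMD1 encodes S-adenosylmethionine decarboxylase, the other rate-limiting step, at chr6:110874770-110898879 on the + strand. In EW8 it read 260, 226 and 257 CPM at 0 h and 154, 161 and 155 at 48 h. In TC71 it read 155, 153 and 159 CPM and then 98.9, 106 and 99.7. Neither line had an overlap between its groups. The log2 change in EW8 was -0.66 ± 0.05 (adjusted p = 8.29e-15). For TC71 it was -0.61 ± 0.05 (adjusted p = 8.90e-13). AMD1 was the synthesis gene whose change was not shown to differ between the lines: the difference was -0.05 with a 95% interval from -0.18 to 0.08 (adjusted p = 0.568). It became -0.15 (adjusted p = 0.0285) without replicate 2 of EW8 at 0 h, the library with the lowest AMD1 level of that group.

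SRM, the spermidine synthase gene at chr1:11054584-11060020 on the − strand, read 333, 365 and 338 CPM in EW8 at 0 h and 255, 233 and 230 at 48 h. All 3 libraries labelled 48 h were lower, with a log2 change of -0.53 ± 0.05 (adjusted p = 7.75e-09). In TC71 the values were 326, 355 and 312 CPM and then 313, 276 and 302. Here the highest library labelled 48 h lay above the lowest one labelled 0 h, and the log2 change was -0.15 ± 0.05 (adjusted p = 0.0215). That call was lost without replicate 2 of TC71 at 0 h (adjusted p = 0.105) or without replicate 2 at 48 h (0.0741), and when total counts alone set the scale (0.198), when 10 counts were required in every library (0.0503) or when TC71 was fitted alone (0.0651). The lines differed in their change by -0.37 ± 0.07 (adjusted p = 2.49e-04).

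SMS encodes spermine synthase at chrX:21940709-21994837 on the + strand. Its level in EW8 was 138, 125 and 142 CPM at 0 h and 81.2, 81.7 and 72.8 at 48 h. These groups stood well apart, with the greatest fall among the 10 genes in EW8, -0.78 ± 0.05 (adjusted p = 3.73e-15). In TC71 it was 105, 102 and 108 CPM and then 96.0, 107 and 100. The TC71 groups overlapped, and the log2 difference was -0.06 ± 0.05 (adjusted p = 0.380), with a 95% interval from -0.16 to 0.05. Among the synthesis genes SMS had the widest difference between the lines, -0.72 ± 0.07 (adjusted p = 5.57e-10).

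Of the 3 antizyme genes, 2 were called lower in EW8 and 1 in TC71, beside 31.6% and 19.2% of all genes. OAZ1, which encodes the abundant antizyme 1, lies at chr19:2269509-2273490 on the + strand and read 524, 574 and 554 CPM in EW8 at 0 h against 455, 424 and 434 at 48 h. In TC71 it read 467, 511 and 462 CPM against 420, 415 and 447. It was lower in every library labelled 48 h, with a log2 change of -0.33 ± 0.04 for EW8 (adjusted p = 1.97e-08) and of -0.17 ± 0.04 for TC71 (adjusted p = 0.00178). The difference of -0.17 between the lines (adjusted p = 0.0206) no longer passed without replicate 2 or replicate 3 of EW8 at 48 h, replicate 1 or replicate 3 of TC71 at 0 h, or replicate 3 of TC71 at 48 h, where the adjusted p ran from 0.0547 to 0.0737, nor with total counts alone (0.235). The same difference did not pass when same-numbered replicates of a line were fitted as a block (adjusted p = 0.0699).

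OAZ2, a second antizyme gene at chr15:64687573-64703281 on the − strand, read 125, 122 and 124 CPM in EW8 at 0 h and 111, 113 and 111 at 48 h. The groups were separate by a small step, -0.14 ± 0.04 on the log2 scale (adjusted p = 0.00364), and with total counts alone this was -0.02 (adjusted p = 0.721). In TC71 it was 111, 109 and 109 CPM against 101, 104 and 108, a difference of -0.07 ± 0.04 (adjusted p = 0.165) that passed with upper-quartile factors (-0.10, adjusted p = 0.0345).

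AZIN1, the antizyme inhibitor on chromosome 8, read 342, 320 and 349 CPM in EW8 at 0 h and 308, 336 and 325 at 48 h. In TC71 it read 251, 249 and 258 CPM against 237, 259 and 252. Groups overlapped in both lines. The log2 differences were -0.06 (95% interval from -0.15 to 0.02; adjusted p = 0.180) and -0.02 (from -0.10 to 0.07; adjusted p = 0.738), and their sign was positive in both lines with total counts alone. AZIN1 in EW8 was called lower with upper-quartile factors (-0.10, adjusted p = 0.0181), when EW8 was fitted alone (-0.09, adjusted p = 0.0468) and without replicate 2 of EW8 at 0 h (-0.13, adjusted p = 0.00406).

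SAT1, the spermidine/spermine acetyltransferase gene at chrX:23783173-23786210 on the + strand, had the greatest change of the 10 in both lines. In EW8 it read 3.42, 3.49 and 4.0 CPM at 0 h, a depth of 61 to 131 counts a library, and 30.4, 34.9 and 32.3 CPM at 48 h, from 572 to 696 counts. In TC71 it read 2.27, 3.09 and 3.68 CPM and then 7.79, 8.58 and 8.97. The lowest library labelled 48 h was above every library labelled 0 h in each line. The log2 change was 3.14 ± 0.11 in EW8 (adjusted p = 1.91e-23), higher than 98.4% of all genes tested, and 1.5 ± 0.13 in TC71 (adjusted p = 1.13e-11), higher than 98.5%. The increase was greater in EW8 by 1.64 ± 0.18 (adjusted p = 2.74e-09).

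SAT1 and SMS lie on the same arm of the X chromosome, 1.79 Mb apart with 6 protein-coding genes between them, and in EW8 they were the members with the greatest rise and the greatest fall.

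SMOX, the spermine oxidase gene at chr20:4120980-4187747 on the + strand, read 14.3, 16.6 and 15 CPM in EW8 at 0 h and 30.1, 31.7 and 30.6 at 48 h. The groups were well separated, with a log2 change of 1.02 ± 0.07 (adjusted p = 3.65e-14). In TC71 it read 15.6, 14.2 and 13.6 CPM against 16.3, 14.8 and 17.4, and the groups overlapped. That difference was 0.16 ± 0.08 (adjusted p = 0.0942), and it was called without replicate 2 of TC71 at 48 h (0.22, adjusted p = 0.0315) and with total counts alone (0.21, adjusted p = 0.0280). The change was greater in EW8 than in TC71 by 0.86 ± 0.11 (adjusted p = 4.77e-08).

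PAOX, which encodes the peroxisomal oxidase of acetylated polyamines, lies at chr10:133379261-133391694 on the + strand and was among the lowest of the 10, with 17 to 43 counts a library in EW8 and 58 to 108 in TC71. It read 0.745, 1.15 and 0.671 CPM in EW8 at 0 h and 1.38, 1.35 and 2.10 at 48 h. The groups did not overlap, and the log2 change was 0.99 ± 0.25 (adjusted p = 7.07e-04). In TC71 it read 3.39, 2.84 and 2.77 CPM against 3.59, 3.77 and 3.34, which overlapped, with a difference of 0.24 ± 0.15 (adjusted p = 0.225). The difference between the lines, 0.76 ± 0.29 (adjusted p = 0.0326), did not pass with DESeq2 (adjusted p = 0.0809) or with a replicate block (adjusted p = 0.0513). It was also lost without replicate 1 or replicate 3 of EW8 at 0 h, replicate 3 of EW8 at 48 h, replicate 1 of TC71 at 0 h, or replicate 3 of TC71 at 48 h, where the adjusted p ran from 0.0556 to 0.192. PAOX shares 1373 annotated exon bases with another gene on the same strand (ENSG00000254536, GENCODE release 44), and how the authors' counting treated shared reads is not given in the sources used here. For SAT1 the shared stretch with another gene was 90 bases.

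SMOX and PAOX lay at the edge of the fold threshold in EW8, at 2.02-fold and 1.99-fold. SMOX fell under it with upper-quartile factors (0.98 on the log2 scale), when EW8 was fitted alone (0.99), without replicate 1 (0.94) or replicate 3 (0.97) of EW8 at 0 h, and, by less than 0.01, without replicate 2 of EW8 at 48 h. PAOX passed it, among other settings, with total counts alone (1.12) and without replicate 2 of EW8 at 0 h (1.17).

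**Figure D2:**
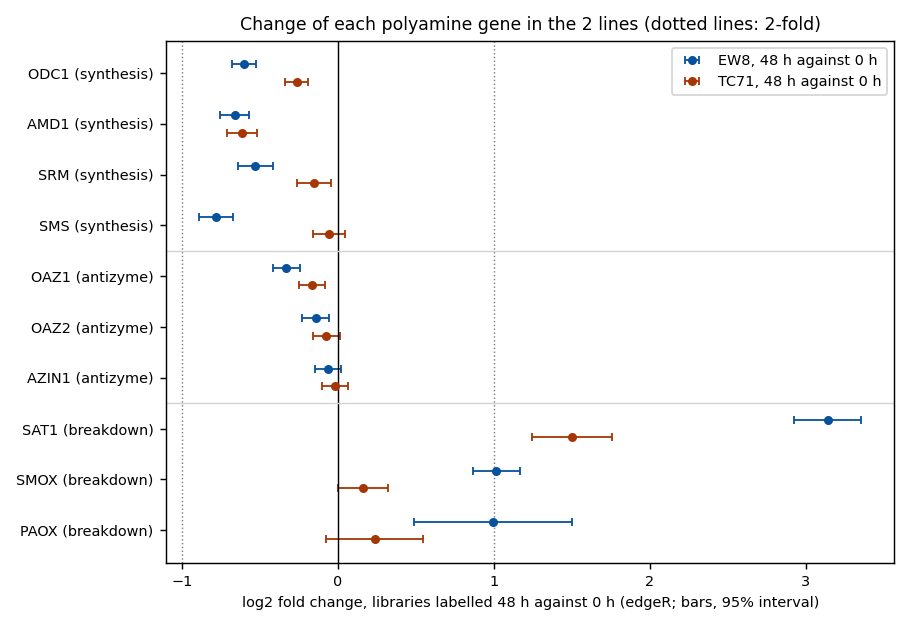
Log2 fold change of each polyamine gene in the libraries labelled 48 h against those labelled 0 h (horizontal axis) in EW8 and TC71, from edgeR with 95% intervals. Points left of 0 are lower at 48 h; ODC1 and AMD1 lie there in both lines, and SAT1 lies at 3.14 in EW8 and 1.5 in TC71.

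The difference between the lines was itself tested for every gene. In all, 4 members fell further in EW8 (ODC1, SRM, SMS and OAZ1) and 3 rose further (SAT1, SMOX and PAOX), beside 22.4% and 25.7% of all genes tested. The OAZ1 and PAOX calls were lost in several settings, as given above. With a fold above 2 in this difference, 1 member, SAT1, was above, beside 7.28% of all genes, and 0 were below, beside 0.981%. For OAZ2 the difference was -0.07 (95% interval from -0.19 to 0.05) and for AZIN1 -0.04 (from -0.16 to 0.08).

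The ratio of SAT1 to ODC1 within a library does not depend on how libraries are scaled. In EW8 there were 0.628, 0.656 and 0.713 SAT1 counts per 100 ODC1 counts with doxycycline, against 8.62, 9.44 and 9.06 after 48 hours without it. In TC71 there were 0.491, 0.666 and 0.822 at 0 h and 2.13, 2.18 and 2.33 at 48 h. The 2 lines started from like means, 0.666 ± 0.0436 and 0.660 ± 0.165 (SD), and the mean was 13.6 times as high at 48 h in EW8 and 3.36 times in TC71. Even in EW8 at 48 h, ODC1 had 10.6 to 11.6 counts for each SAT1 count. The ratio follows from the changes of both genes above and was given no test.

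**Figure D3:**
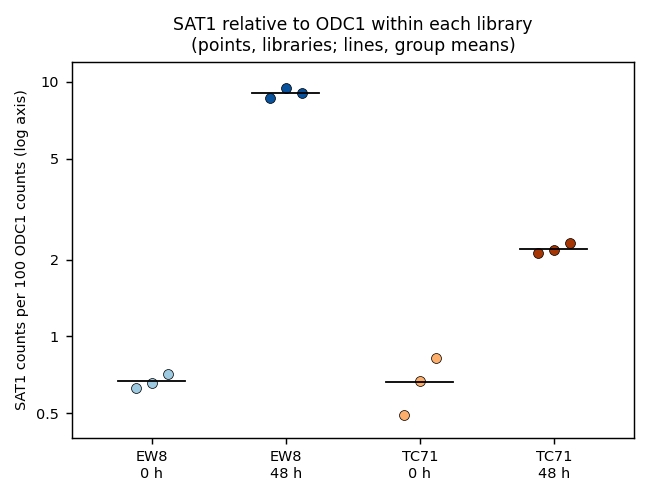
SAT1 counts per 100 ODC1 counts (vertical log axis) in each library, with lines at the group means. EW8 and TC71 overlap at 0 h, and at 48 h the EW8 libraries lie between 8.62 and 9.44 and the TC71 libraries between 2.13 and 2.33.

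Summed over the 4 synthesis genes, the level was 1273 ± 24.0 CPM (SD) in EW8 at 0 h and 834 ± 17.6 at 48 h, and 1050 ± 24.0 and 881 ± 6.60 in TC71. The 3 breakdown genes together gave 19.8 ± 1.39 and 65.0 ± 3.02 CPM in EW8 and 20.5 ± 0.648 and 28.2 ± 1.33 in TC71. The antizyme genes gave 1011 ± 18.5 and 873 ± 1.88 CPM, and 842 ± 22.8 and 781 ± 24.7. Thus the summed breakdown level stayed far below the summed synthesis level in each group while the gap narrowed. These sums are not corrected for transcript length. Relative to length, SAT1 alone came closer to AMD1 and SMS in EW8 at 48 h, as given below.

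Levels of different genes were compared per kilobase (kb) of the canonical transcript. In EW8 at 0 h OAZ1 stood highest, at 480 ± 21.7 CPM per kb, followed by SRM at 274 ± 13.5 and ODC1 at 220 ± 5.63. AZIN1 (80.4 ± 3.58), SMS (79.1 ± 5.10) and AMD1 (72.3 ± 5.39) came next, and neighbors among these 3 overlapped. OAZ2 followed at 63.9 ± 0.964, and then a step down to SMOX (7.08 ± 0.543), SAT1 (3.47 ± 0.300) and PAOX (0.467 ± 0.140).

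At 48 h in EW8 SAT1, at 31.0 ± 2.15 CPM per kb, had passed SMOX, at 14.2 ± 0.378, and lay below AMD1 (45.7 ± 1.02) and SMS (46.1 ± 2.95). In TC71 the order at 0 h was the same in its first 3 and last 3 places. SAT1 went from 2.87 ± 0.675 to 8.05 ± 0.574 CPM per kb there, where it overlapped with SMOX (7.47 ± 0.598), and AMD1, at 29.7 ± 1.21, was lower than SMS, at 59.3 ± 3.19. The length used matters to this order: with all annotated exons merged, a choice made after seeing the data, SRM stood first in EW8 at 0 h, at 182 CPM per kb, before ODC1 (165) and OAZ1 (160). It also moved the low end in TC71, where the PAOX mean (1.33) was above that of SAT1 (1.21) at 0 h and SMOX (5.03 to 5.90) stood clear of SAT1 (3.14 to 3.61) at 48 h. In EW8 at 48 h the merged-exon means put SAT1 (13.1) below OAZ2 (14.6) and AMD1 (15.4).

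**Figure D4:**
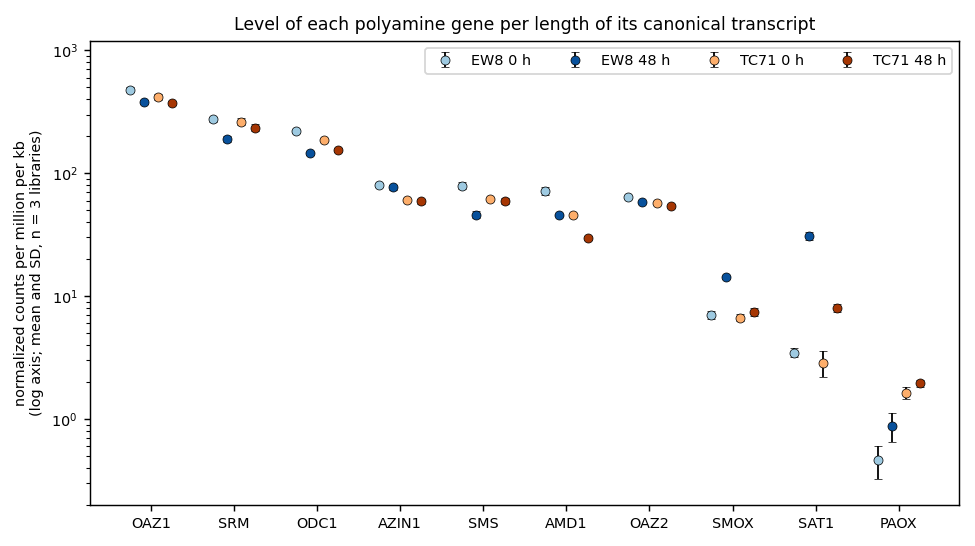
CPM per kb of canonical transcript (vertical log axis) for each polyamine gene in the 4 groups, as mean and SD of 3 libraries, in the order of the EW8 0 h levels. SAT1 moves from 3.47 to 31.0 in EW8 and from 2.87 to 8.05 in TC71, while PAOX is lowest in every group.

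With doxycycline present the lines already differed. At 0 h, 6 members were higher in EW8 than in TC71 at an adjusted p below 0.05 and 1 was lower, beside 32.8% and 32.9% of all genes tested. With a fold above 2, 0 were higher and 1 was lower, beside 4.77% and 11.9%. The libraries of the lines did not overlap for the same 7 members, beside 34.0% of all genes that were higher in EW8 and 34.3% that were lower. AMD1 was the furthest above, by 0.67 ± 0.05 on the log2 scale (adjusted p = 5.95e-15). AZIN1 (0.42), SMS (0.36), ODC1 (0.25), OAZ1 (0.20) and OAZ2 (0.17) were higher as well, the last 2 not with total counts alone (adjusted p = 0.192 and 0.402). PAOX was lower in EW8 by -1.89 ± 0.21 (adjusted p = 1.36e-09), so that even its highest EW8 library at 48 h, 2.10 CPM, lay below the lowest TC71 library. For SRM (0.06; 95% interval from -0.05 to 0.17), SMOX (0.07; from -0.09 to 0.23) and SAT1 (0.30; from -0.01 to 0.61) no difference at 0 h passed the test. SAT1 did pass without replicate 3 of TC71 at 0 h (0.48, adjusted p = 0.0112).

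A wider list held 43 further genes of polyamine supply, use and transport, of which 36 are in the table and 35 were tested. At an adjusted p below 0.05, EW8 had 9 of these up, 17 down and 9 that did not pass. TC71 had 8 up, 13 down and 14 that did not pass. Over all genes tested the shares were 37.0% up and 31.6% down in EW8 and 22.9% and 19.2% in TC71, and the counts by group that follow stand beside the same shares. With a fold above 2, 4 were up and 1 down in EW8, against 0 of either kind in TC71, beside 13.9% and 3.35% of all genes in EW8 and 3.26% and 0.854% in TC71. The median log2 change of the 35 was -0.14 in EW8 and -0.13 in TC71.

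Genes of the methionine cycle and of methylthioadenosine salvage, which supply AMD1 and recover the by-product of SRM and SMS, gave 0 up and 7 down of 9 tested in each line, beside 31.6% of all genes down in EW8 and 19.2% in TC71. MAT2A, the S-adenosylmethionine synthetase, changed most in both. It read 545 to 570 CPM in EW8 at 0 h and 199 to 208 at 48 h, a log2 change of -1.45 ± 0.05 (adjusted p = 6.40e-18). In TC71 the log2 change was -0.60 ± 0.05 (adjusted p = 6.85e-10).

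Among 6 tested genes of arginine and ornithine supply, each line had 3 up and 1 down. AZIN2, a second antizyme inhibitor, rose most in EW8, from 4 to 11 counts a library at 0 h to 17 to 34 at 48 h (log2 change 1.91 ± 0.34; adjusted p = 8.41e-06). In TC71 the greatest change was that of ARG2, the mitochondrial arginase that makes ornithine, at 0.52 ± 0.08 (adjusted p = 1.65e-06).

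Of 11 tested transport genes, EW8 had 4 up and 6 down, and TC71 had 4 up and 1 down. SLC3A2, the heavy chain of several amino acid transporters, which has also been linked to polyamine export, read 224 to 238 CPM in EW8 at 0 h and 682 to 697 at 48 h. Its log2 change was 1.57 ± 0.04 there (adjusted p = 3.26e-27), and the TC71 libraries gave 0.49 ± 0.04 (adjusted p = 3.86e-12). GPC1, a heparan sulfate proteoglycan, had the greatest change of the group in TC71, 0.86 ± 0.20 (adjusted p = 6.66e-04), at 21 to 62 counts a library.

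EIF5A, DHPS and DOHH belong to the hypusine pathway, in which spermidine is used to modify the translation factor eIF5A. Of the 4 genes tested there, 1 rose and 2 fell in each line. EIF5A changed by -0.72 ± 0.04 in EW8 (adjusted p = 2.15e-17). The TC71 value was -0.32 ± 0.04 (adjusted p = 4.82e-08). DOHH, the hydroxylase that completes hypusine, rose by 0.33 ± 0.09 in TC71 (adjusted p = 0.00543), the greatest change of this group there.

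The 5 further antizyme, acetyltransferase and oxidase genes tested gave 1 up and 1 down in EW8 and 0 up and 2 down in TC71. The amine oxidase gene AOC2 rose by 2.0 ± 0.21 in EW8 (adjusted p = 3.95e-10), from 15 to 27 counts a library to 50 to 72. Its relative AOC3 had the greatest change in TC71, -0.95 ± 0.34 (adjusted p = 0.0224), at 7 to 20 counts a library.

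**Figure D5:**
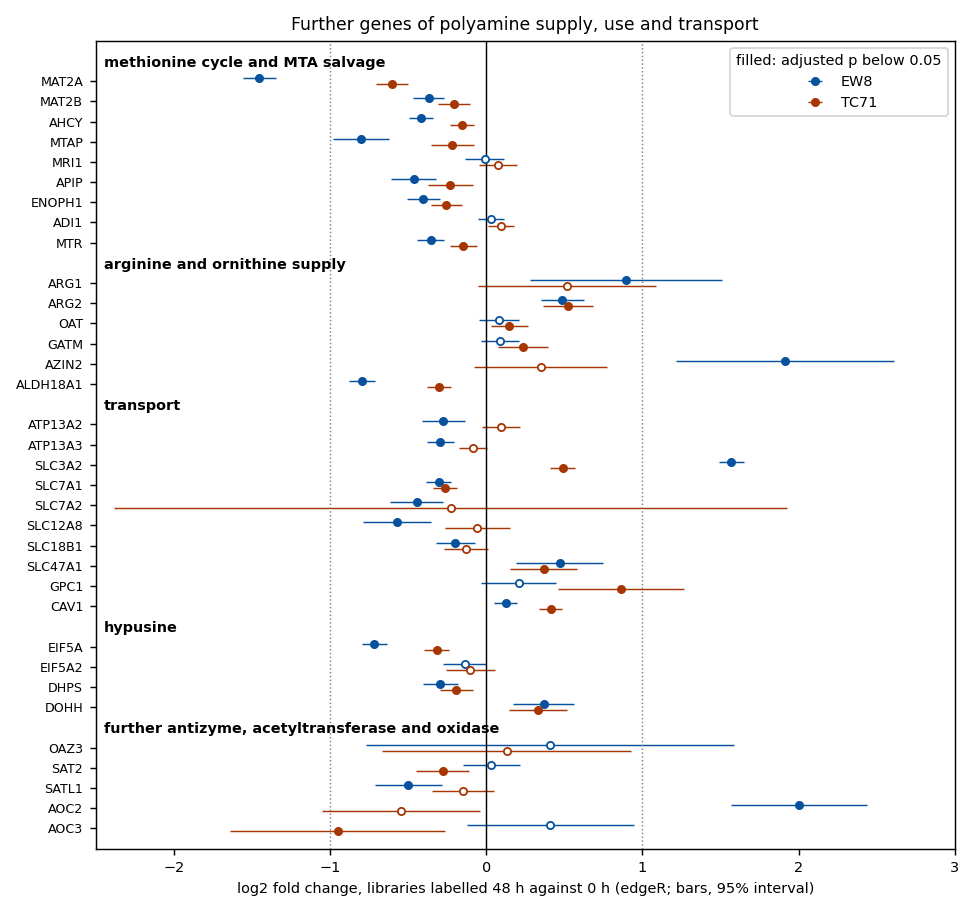
Log2 fold change, libraries labelled 48 h against 0 h (horizontal axis; 95% intervals from edgeR), of 34 of the 35 further polyamine-related genes tested, by group. Filled points have an adjusted p below 0.05; 7 of the 9 methionine and salvage genes are filled and lie below 0 in each line, with MAT2A at -1.45 in EW8.

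The genes most like ODC1 were sought by Pearson's correlation of log2 CPM over the 12 libraries among 11920 genes averaging at least 50 counts. The 12 points come from 4 groups, so such a correlation mainly describes the group means. The 5 highest for ODC1 were SSBP1 (r = 0.996), RAD23B, SET, HNRNPU and RPL27 (0.991). For SAT1 they were LIPH (r = 0.995), MIR4435-2HG, ZNF200, CDKL2 and TRIM38 (0.993). LIPH rose by 4.76 in EW8 and 2.34 in TC71 on the log2 scale, and SSBP1 fell by 0.64 and 0.30. Among the members, ODC1 correlated most with SMS (r = 0.91) and least in size with AZIN1 (0.30), and its r with SAT1 was -0.81.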

How the data were processed

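RNA of 12 libraries was sequenced from a stranded mRNA kit. The authors deposited 1 table of raw counts per gene, not normalized; per the labels, reads were checked with FastQC and mapped to hg38 with STAR. The counting tool, its strand setting and the annotation are not given in the sources used here. No gene sums to fewer than 21 counts over all libraries, so low genes had been removed. Columns were matched to samples by name.

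The counts were fitted with edgeR 4.0.16 (R 4.3.3): filterByExpr (minimum count 10, total 15), TMM factors, and a quasi-likelihood fit with the robust option and no covariates over all 4 groups, giving a biological coefficient of variation of 4.17%. Contrasts were 48 h against 0 h in each line, their difference, and the lines at 0 h. Benjamini-Hochberg adjustment covered all 16515 genes tested. Calls used an adjusted p below 0.05, alone or with a fold above 2. SE is the absolute log2 change over the root of F, and 95% intervals are not adjusted. CPM uses TMM-scaled library sizes. PAOX, and SAT1 at 0 h, had the fewest counts and so the largest counting error. Gene models came from GENCODE release 44 and promoters from RefSeq (GRCh38.p14; 7 of 10 members matched). The fit was tested on simulated data.

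All 10 members were named, as were genes of the wider list that were called with a fold above 2 in a line or had the largest change of their group, and the 5 genes most like ODC1 and SAT1. Members and lists were chosen with earlier results of these data known. Alternatives were other scalings, DESeq2 1.42.0, other filters and thresholds, each line alone, a replicate block, a non-robust fit, and each library left out. Figures used matplotlib. A result of the wider list is not reported here. Protein sequences and other experiments of the study were not analysed here.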

Additional observations from a re-analysis of the deposited data

Results flagged for a closer look

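For 7 of the 10 polyamine genes, the change at 48 h differed between EW8 and TC71 by edgeR's test of the difference itself at an adjusted p below 0.05, 4 downward and 3 upward, beside 22.4% and 25.7% of all genes tested. On the log2 scale, EW8 minus TC71, the difference was -0.34 for ODC1, -0.37 for SRM, -0.72 for SMS and -0.17 for OAZ1, which fell further in EW8. It was 1.64 for SAT1, 0.86 for SMOX and 0.76 for PAOX, which rose further in EW8. The OAZ1 call was lost with total counts alone, the PAOX call with DESeq2, and each in 5 of the 12 fits that left out a library. Both were also lost with a replicate block (adjusted p = 0.0699 for OAZ1 and 0.0513 for PAOX). The ODC1, OAZ1 and SAT1 changes passed the test in both lines with one sign, as did SRM, whose call in TC71 depended on the settings. For SMS, SMOX and PAOX the change passed in EW8 and not in TC71. The median of all genes tested was 0.04 in the same comparison.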

How the results depend on the processing

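The changes of ODC1, AMD1, OAZ1 and SAT1 in both lines, and of SRM, SMS, SMOX and PAOX in EW8, kept their direction and stayed under an adjusted p of 0.05 in all settings run, leave-outs included. Without a fold threshold the members called rose to 6 down in EW8, 4 down in TC71, 3 up and 4 down for the difference between the lines, and 6 up for EW8 against TC71 at 0 h. Members up in EW8 with a fold above 2 were 1 with upper-quartile factors or with EW8 fitted alone, and 1 to 2 over the leave-outs (the 1 without replicate 1 or 3 of EW8 at 0 h). Members up in TC71 at an adjusted p alone were 2 with total counts alone and 1 to 2 over the leave-outs (2 without replicate 2 at 48 h). Signs turned for these uncalled values: EW8 against TC71 at 0 h, SRM -0.016 and SMOX -0.0088 with upper-quartile factors, and -0.071 and -0.063 with total counts alone; AZIN1 with total counts alone, 0.062 in EW8 and 0.031 in TC71, and from -0.052 to 0.016 in TC71 over the leave-outs (positive without replicate 1 at 48 h); and the difference between the lines with total counts alone, AMD1 0.026, OAZ2 0.0056 and AZIN1 0.031. The causes were not tested. The median of all genes was 0.03 in EW8, and 0.16 with total counts alone. For EW8 against TC71 at 0 h it was -0.0094, then -0.14 with total counts alone and -0.089 with upper-quartile factors. Over all genes, 2294 rose and 554 fell in EW8 with a fold above 2 (539 and 141 in TC71). Requiring 10 counts in every library left 1204 and 306 (197 and 36), from fewer genes tested, no fold threshold gave 6103 and 5226 (3776 and 3179), and total counts alone gave 345 down in EW8. Replicate numbers are shared across groups. Same-numbered libraries of a line did not deviate together (correlations from -0.29 to 0.02). With 3 libraries a group, this cannot show whether they shared a culture or a day. A replicate block took 2 calls, the difference between the lines for OAZ1 (-0.17, adjusted p = 0.0699) and for PAOX (0.75, adjusted p = 0.0513), and no other call of a member's test.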
